A study of Mus musculus with 8 samples.

Results

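The 28 genes described here build cholesterol from acetyl-CoA, control that synthesis through the transcription factor SREBP2, or move and store the product. They were listed by known function, with earlier results of these data known. Symbols absent from the 22173 gene symbols of the count tables were dropped from the list. By role, 8 genes serve the mevalonate and isoprenoid steps, 12 the steps from squalene to cholesterol, 6 encode SREBP2 and its regulators, and 2 serve sterol transport and storage. Each of the 28 was measured in every comparison below, that is, it had 20 counts or more in at least 1 library of the pair.

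Macrophages of wild-type mice were grown from bone marrow (BMDMs) for 7 days and sequenced with or without G-1, an agonist of the G protein-coupled estrogen receptor GPER1. The 8 groups were M0 macrophages with G-1 and M0 macrophages left unpolarized; M1 macrophages, given LPS at 100 ng/ml and interferon-γ at 20 ng/ml, with G-1 and without; macrophages labelled IL4, given IL-4 at 20 ng/ml, with G-1 and without; and primary tubular epithelial cells (TECs) after 24 h beside M1 macrophages that had, or had not, been pretreated with G-1. G-1 was used at 10 μmol/L in DMSO for 48 h, and it was not added to the TECs. The macrophages were rinsed before the co-culture to keep G-1 from being carried over, and no measurement of carry-over is described. RNA of 3 samples per group was pooled into 1 library, so the spread between samples was not measured and every interval below covers counting error only.

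Cells sense cholesterol in the membrane of the endoplasmic reticulum. When it is scarce, SCAP escorts SREBP2 to the Golgi, where a pair of proteases frees the part that enters the nucleus and binds sterol regulatory elements in the promoters of the synthesis genes, and INSIG proteins hold SCAP back when cholesterol is plentiful. Macrophages also take up cholesterol from lipoproteins and engulfed cells and keep the surplus as esters.

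Total counts ran from 35027179 to 40671596 per library. The labels were checked against known marker genes. Nos2, which makes nitric oxide in activated macrophages, had 44992 counts in the M1 library and 2 in the M0 library. The library labelled IL4 lacked the usual response to IL-4: Retnla and Ccl17 had 0 counts in it and 0 in the M0 library, and Arg1 had 7 counts in it and 1 in the M0 library. Mgl2 had 14 counts in the library labelled IL4 and 649 in the M0 library. Mrc1, the mannose receptor, was higher, with 188110 counts in the library labelled IL4 and 83675 in the M0 library. TEC libraries held all 8 epithelial markers, at a summed 8724 CPM (counts scaled to a common library total) beside G-1-treated macrophages and 7680 CPM beside untreated ones, against at most 0.879 CPM in the macrophage libraries. Of 7 markers of the proximal tubule, 4 reached 20 counts in each TEC library. All 8 macrophage markers stayed above 0 in both TEC libraries, and their median level there was 0.765% (G-1-treated co-culture) and 1.34% (untreated co-culture) of the level in the matching M1 libraries.

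Promoter windows from RefSeq on GRCm38.p6, from 250 bases before to 50 bases after a start site, were matched for 24 of the 28 genes. Each window was searched on both strands for TCACNCCAC, the core of a sterol regulatory element, and for CCAAT, the box bound by the NF-Y factor that acts with SREBP2. The longer motif without its last base, TCACNCCA, were added after the sequences had been seen and contain every match of the longer motif. Hmgcs1 alone held TCACNCCAC, which 1.24% of all 32851 windows hold. Hmgcs1, Msmo1 and Srebf2 held TCACNCCA, which 4.97% of all 27025 genes with a window hold. CCAAT was found in 20 of the 24 genes, against 41.1% of all genes with a window and 43.4% of the 9113 such genes measured in the M0 pair. These matches are a description of the letters and not evidence of a bound site.

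The 250 bases upstream of 6 genes are shown, since their transcripts carry the results below: Msmo1, Nsdhl, Cyp51 and Dhcr7, which had the smallest p-values for G-1 across macrophage states among genes with a window, Srebf2 as the regulator, and Hmgcs1 for its full match. Capitals mark TCACNCCA or TCACNCCAC and CCAAT or its reverse complement ATTGG. Each run is read 5′ to 3′ along the strand of the gene, and it ends at the base before the start site. Msmo1 lies on the minus strand at chr8:64733579-64733828, Nsdhl on the plus strand at chrX:72918271-72918520 and Cyp51 on the minus strand at chr5:4104698-4104947. Dhcr7 has several windows, of which the one with matches is given, on the plus strand at chr7:143829964-143830213. Srebf2 lies on the plus strand at chr15:82147019-82147268 and Hmgcs1 on the plus strand at chr13:119690101-119690350.
Msmo1: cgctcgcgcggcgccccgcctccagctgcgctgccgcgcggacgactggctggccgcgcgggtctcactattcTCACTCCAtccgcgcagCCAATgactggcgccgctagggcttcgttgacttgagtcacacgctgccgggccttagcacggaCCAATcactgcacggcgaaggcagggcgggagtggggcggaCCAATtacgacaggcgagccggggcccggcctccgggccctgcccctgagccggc
Nsdhl: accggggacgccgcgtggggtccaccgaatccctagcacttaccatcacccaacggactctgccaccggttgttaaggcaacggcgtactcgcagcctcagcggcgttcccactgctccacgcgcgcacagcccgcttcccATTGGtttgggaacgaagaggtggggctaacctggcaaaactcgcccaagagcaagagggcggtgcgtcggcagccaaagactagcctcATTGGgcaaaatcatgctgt
Cyp51: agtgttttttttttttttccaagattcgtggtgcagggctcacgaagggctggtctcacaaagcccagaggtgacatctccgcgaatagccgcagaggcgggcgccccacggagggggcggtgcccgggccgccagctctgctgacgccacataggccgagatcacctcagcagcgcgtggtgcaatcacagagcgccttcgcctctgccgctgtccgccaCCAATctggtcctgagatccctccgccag
Dhcr7: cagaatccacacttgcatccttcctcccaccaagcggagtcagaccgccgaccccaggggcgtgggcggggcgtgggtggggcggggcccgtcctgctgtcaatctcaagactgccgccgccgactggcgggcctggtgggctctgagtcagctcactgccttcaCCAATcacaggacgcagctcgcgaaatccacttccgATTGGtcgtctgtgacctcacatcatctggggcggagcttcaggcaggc
Srebf2: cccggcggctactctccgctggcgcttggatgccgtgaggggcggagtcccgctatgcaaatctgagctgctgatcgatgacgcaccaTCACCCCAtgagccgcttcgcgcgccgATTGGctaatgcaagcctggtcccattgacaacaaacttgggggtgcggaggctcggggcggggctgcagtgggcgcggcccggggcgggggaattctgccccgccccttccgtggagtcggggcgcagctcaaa
Hmgcs1: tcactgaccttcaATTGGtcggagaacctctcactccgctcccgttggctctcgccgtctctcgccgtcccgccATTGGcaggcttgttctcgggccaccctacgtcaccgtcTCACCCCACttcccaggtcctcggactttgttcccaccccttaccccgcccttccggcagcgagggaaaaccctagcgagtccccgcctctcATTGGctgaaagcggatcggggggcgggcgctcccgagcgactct
The sterol element letters began 177 bases before the start site in Msmo1, 162 in Srebf2 and 137 in Hmgcs1. In each of these 3 genes a CCAAT box lay in the same window, a combination that 1.90% of all genes with a window hold. Nsdhl, Cyp51 and Dhcr7 held CCAAT boxes and no match to TCACNCCA in the windows searched. Only these exact letters were searched, so a sterol element with other letters would have been missed.

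The first comparison asked what G-1 did in unpolarized macrophages. Transcripts of most enzymes of the pathway were more abundant in the M0 library with G-1, over nearly its whole length, and so were those of SREBP2 itself and of its inhibitor INSIG1. A total of 17 of the 28 genes were at least 2-fold higher with G-1, where 12.2% of the 11252 genes measured were, and 1 was at least 2-fold lower, where 12.6% of all genes were. The median log2 fold of the 28 genes was 1.35, against -0.0016 over all genes. Folds were scaled by TMM, and 25 of the 28 lay above 0.

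Among the 8 genes of the mevalonate and isoprenoid steps, 5 were at least 2-fold higher with G-1 in M0 macrophages. Fdps, which makes the farnesyl diphosphate used for sterols and for protein prenylation, had 3540 counts with G-1 and 720 without, a fold of 5.19 (95% interval 4.79 to 5.63). Idi1, the isomerase of the isoprene unit, had 897 counts with G-1 and 218 without, a fold of 4.34 (3.74 to 5.06). Hmgcs1, the cytosolic HMG-CoA synthase, had 6497 counts with G-1 and 1929 without, a fold of 3.55 (3.38 to 3.74). For each of these 3 genes the low end of the interval lay above 3-fold. Mvd, which decarboxylates mevalonate diphosphate, had 2232 counts with G-1 and 720 without, a fold of 3.27 (3.01 to 3.56). Acat2, the thiolase that joins acetyl-CoA units, had 756 counts with G-1 and 254 without, a fold of 3.14 (2.72 to 3.63). Acat2 has a close copy, Acat3, and how reads shared by both were counted is not given in the sources used here. The kinases Mvk and Pmvk and the branch enzyme Ggps1, which leads away from sterols to geranylgeranyl diphosphate, did not reach 2-fold. Mvk had 726 counts with G-1 and 437 without, Pmvk had 582 with G-1 and 569 without, and Ggps1 had 609 with G-1 and 1007 without.

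Among the 12 genes that lead from squalene to cholesterol, 9 were at least 2-fold higher with G-1 in M0 macrophages and 1 was lower. The widest difference was that of Sqle, the squalene epoxidase and a rate-limiting enzyme of this stretch, with 6157 counts with G-1 and 777 without, a fold of 8.36 (7.76 to 9.02). Hsd17b7, a ketoreductase that acts while methyl groups are removed, had 1212 counts with G-1 and 216 without, a fold of 5.92 (5.12 to 6.87). Lss, which folds the epoxide into lanosterol, had 3340 counts with G-1 and 690 without, a fold of 5.11 (4.70 to 5.55). The enzymes that strip methyl groups from lanosterol were higher as well. Msmo1, the methylsterol oxidase, had 6535 counts with G-1 and 1838 without, a fold of 3.75 (3.56 to 3.95). Cyp51, the lanosterol demethylase, had 4059 counts with G-1 and 1187 without, a fold of 3.61 (3.38 to 3.85). Nsdhl, the decarboxylating sterol dehydrogenase, had 1107 counts with G-1 and 468 without, a fold of 2.495 (2.24 to 2.79).

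Sc5d, a sterol desaturase, had 2178 counts with G-1 in M0 macrophages and 739 without, a fold of 3.11 (2.86 to 3.38). Dhcr7, which reduces the last double bond to give cholesterol, had 1959 counts with G-1 and 996 without, a fold of 2.08 (1.92 to 2.24), whose interval reaches under 2-fold. Tm7sf2 and Lbr both encode sterol reductases of the same step, and they moved in opposite directions. Tm7sf2 had 495 counts with G-1 and 204 without, a fold of 2.56 (2.17 to 3.03). Lbr, which is also the lamin B receptor of the nuclear envelope, had 1116 counts with G-1 and 2410 without, and was 2.05-fold lower (1.91 to 2.20). Fdft1, the squalene synthase, had 2933 counts with G-1 and 1828 without, and Ebp, a sterol isomerase, had 1547 with G-1 and 1892 without, and neither reached 2-fold. The RefSeq spans of 3 of the 28 genes overlap that of another coding gene, namely Fdft1 with Ctsb, Tm7sf2 with Vps51 and Mbtps2 with Yy2, and whether the counting used strand is not given in the sources used here.

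Of the 6 genes of the SREBP2 control circuit, 2 were at least 2-fold higher with G-1 in M0 macrophages. Insig1, itself a known target of SREBP2, had 5495 counts with G-1 and 2232 without, a fold of 2.60 (2.47 to 2.73). Srebf2, which encodes SREBP2, had 12115 counts with G-1 and 5003 without, a fold of 2.55 (2.47 to 2.64). The escort and the proteases did not reach 2-fold. Scap had 2310 counts with G-1 and 2396 without, Mbtps1 had 2699 with G-1 and 2789 without, and Mbtps2 had 2455 with G-1 and 1614 without. Insig2, the paralog of Insig1, had 1132 counts with G-1 and 915 without. In the transport and storage pair, Stard4, a carrier of cholesterol between membranes, had 2794 counts with G-1 and 1096 without, a fold of 2.69 (2.51 to 2.89). Soat1, which esterifies cholesterol for storage, had 22666 counts with G-1 and 12031 without, a fold of 1.99 (1.94 to 2.03), just under the 2-fold line.

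**Figure D1:**
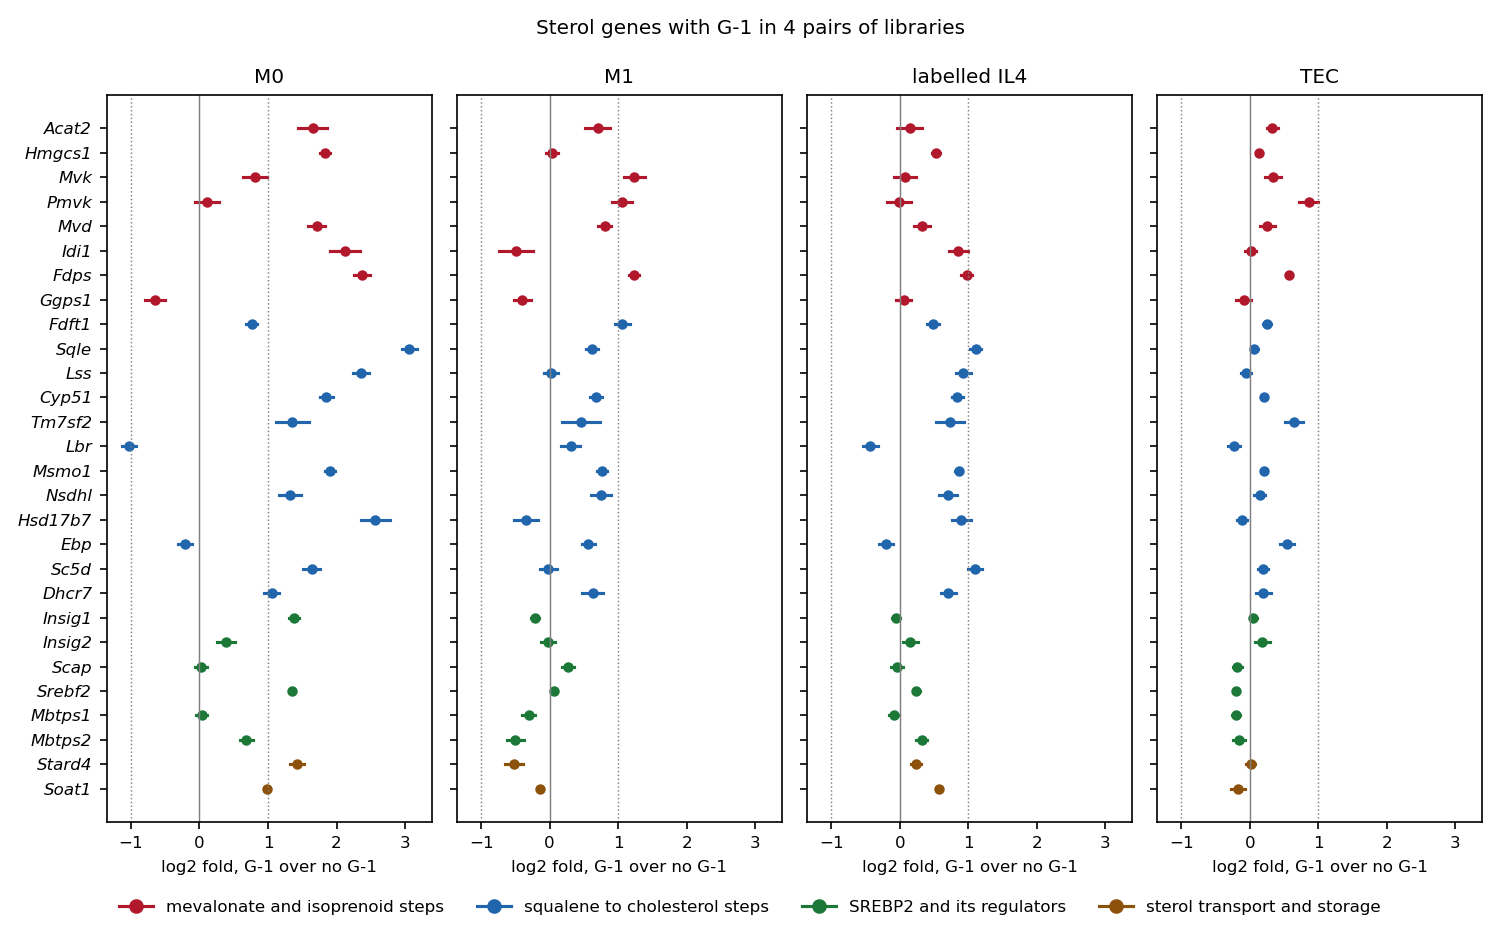
Log2 fold of the 28 sterol genes with G-1 over without (x axis) in each of 4 pairs of libraries, 1 pooled library per condition, with the gene on the y axis, colour for its role, bars for the exact 95% counting interval and dotted lines at 2-fold. In the M0 panel 17 points lie past the right dotted line and Lbr past the left one, while no point passes either line in the TEC panel.

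Of 35 further sterol genes listed by function, 34 were measured in the M0 pair, and 8 were at least 2-fold higher with G-1 and 3 lower, against 12.2% and 12.6% of all genes. Soat2, the second enzyme that makes cholesterol esters, had 50 counts with G-1 and 10 without, a fold of 5.27 (2.64 to 11.7). Por, the reductase that passes electrons to Sqle and Cyp51, had 24804 counts with G-1 and 9026 without, a fold of 2.90 (2.83 to 2.97). Pdss1, a subunit of the synthase of the ubiquinone tail, had 73 counts with G-1 and 25 without, a fold of 3.08 (1.93 to 5.06). The 3 genes that were lower do not belong to the synthesis steps. Lipe, the hormone-sensitive lipase that splits stored esters, had 567 counts with G-1 and 1630 without, and was 2.73-fold lower (2.48 to 3.004). Acat1, the mitochondrial thiolase, had 584 counts with G-1 and 1660 without, and was 2.70-fold lower (2.45 to 2.97). Rnf145, a ubiquitin ligase of the sterol-regulated degradation machinery, had 1095 counts with G-1 and 2871 without, and was 2.49-fold lower (2.32 to 2.67). The other genes called higher were Nceh1, Cyb5r3, Tmem97, Cyb5b and Lipa, named after their values were seen, at folds from 2.06 for Lipa to 2.48 for Nceh1.

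Markers of cell identity moved in the same pair. The 8 macrophage markers summed to 10420 CPM with G-1 and 39780 CPM without, and 5 of the 8 were at least 2-fold lower. Lyz2 gave most of both sums, with 201537 counts with G-1 and 954912 without. Cd68 went the other way, with 70500 counts with G-1 and 38559 without. Dendritic cell markers, 8 in all, summed to 71.3 CPM with G-1 and 9.51 CPM without, of which Itgax gave 2625 counts with G-1 and 293 without, and 5 of the 8 were at 0 with G-1. The 9 neutrophil markers summed to 1.14 CPM with G-1 and 10.7 CPM without, with 7 of the 9 at 0 with G-1. Endothelial markers, 6 in all, summed to 250 CPM with G-1 and 33.8 CPM without, of which Vwf gave 8345 counts with G-1 and 831 without, and 2 were at 0 in each library. T cell, B cell and fibroblast markers summed to at most 3.45 CPM in either library. Their part in the sterol genes' folds was not tested, and in pooled bulk RNA a change in the cells present cannot be told apart from a change in RNA per cell.

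The same comparison was made in the macrophages labelled IL4. With G-1, 2 of the 28 genes were at least 2-fold higher there, where 5.95% of 11344 genes were, and 0 were lower, where 7.78% of all genes were. Sqle had 3479 counts with G-1 and 1684 without in this pair, a fold of 2.16 (2.03 to 2.29). Sc5d had 2276 counts with G-1 and 1106 without, a fold of 2.15 (1.997 to 2.31). Several others lay close under the line. Fdps had 3599 counts with G-1 and 1907 without, a fold of 1.97 (1.86 to 2.08), and Lss had 2050 with G-1 and 1123 without, a fold of 1.90 (1.77 to 2.05). The median log2 fold was 0.40 over the 28 genes and 0.01 over all genes, and 22 of the 28 lay above 0. The 26 genes that were not called ranged from -0.43 for Lbr to 0.98 for Fdps on the log2 scale. Srebf2 had 7643 counts with G-1 and 6740 without, and Insig1 had 4698 with G-1 and 5082 without. Macrophage markers summed to 20840 CPM with G-1 and 44620 CPM without in this pair, where 3 of the 8 were at least 2-fold lower and 0 higher. Their part in these folds was not tested.

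Outside the 28 genes, 2 sterol genes were higher and 1 lower with G-1 in the pair labelled IL4. Soat2 had 130 counts with G-1 and 15 without, a fold of 9.04 (5.28 to 16.6). Gramd1c, a membrane sterol carrier, had 25 counts with G-1 and 4 without, a fold of 6.52 (2.25 to 25.8). Acat1 had 1283 counts with G-1 and 3235 without, and was 2.42-fold lower (2.27 to 2.58). The wide intervals of Soat2 and Gramd1c come from their low counts.

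In M1 macrophages the question was what G-1 did during LPS and interferon-γ. Here 4 of the 28 genes were at least 2-fold higher with G-1, where 9.44% of 11064 genes were, and 0 were lower, where 12.1% of all genes were. The list of mevalonate and isoprenoid steps gave 3 of the 4, and Fdft1, which makes squalene, was the other. Mvk, the mevalonate kinase, had 1046 counts with G-1 and 498 without, a fold of 2.35 (2.11 to 2.62), and Fdps had 4675 with G-1 and 2233 without, a fold of 2.35 (2.23 to 2.47). Pmvk, the next kinase, had 1072 counts with G-1 and 576 without, a fold of 2.09 (1.88 to 2.31). Fdft1 had 1885 counts with G-1 and 1013 without, a fold of 2.09 (1.93 to 2.25). The median log2 fold was 0.29 over the 28 genes and 0.00085 over all genes, and 18 of the 28 lay above 0.

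Fdps was thus called in both the M0 and the M1 pair, while the other 16 genes called higher in the M0 pair did not reach 2-fold in the M1 pair. Sqle had 2537 counts with G-1 and 1843 without, a fold of 1.54 (1.45 to 1.64). Hsd17b7 had 497 counts with G-1 and 707 without, and Idi1 had 225 with G-1 and 354 without, so that both lay below 0 on the log2 scale. Hmgcs1 had 2034 counts with G-1 and 2231 without, and Srebf2 had 6847 with G-1 and 7356 without. After TMM scaling both were nearly level, with log2 folds of 0.03 for Hmgcs1 and 0.06 for Srebf2. Of the further sterol genes, Npc2, a carrier of cholesterol out of lysosomes, was the 1 called, with 116703 counts with G-1 and 59588 without, a fold of 2.20 (2.17 to 2.22). The 8 macrophage markers summed to 12320 CPM with G-1 and 18160 CPM without in this pair, and their part was not tested. Whether these folds differ from those in M0 macrophages could not be tested with 1 library per condition.

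Folds in the M1 pair went with transcript length. Over 10870 genes with a known length, Spearman's rho between the log2 fold and the length was -0.54, and over the 28 sterol genes it was -0.62, where all genes share the same pair of libraries. Genes in the shortest 20% had a median log2 fold of 0.68 and those in the longest 20% one of -0.66. In the M0 pair rho over all genes was 0.12 and in the pair labelled IL4 it was 0.02. After the running median over length and then GC content was removed, Fdps kept a log2 fold of 1.12 and Fdft1 of 1.09 in the M1 pair. Mvk then had 0.90 and Pmvk 0.22, so that 2 of the 4 genes lost their call. Genes that were not called moved both ways. Lss went from 0.02 to 0.75, while Mvd went from 0.80 to 0.21. Hmgcs1 and Srebf2, nearly level before, then stood at 0.20 and 0.33. Over the 28 genes in the M1 pair the median log2 fold was 0.29 before and 0.35 after the removal. Of these genes, 18 lay above 0 before the removal and 21 after it. In the M0 pair 16 of the 17 genes remained past 2-fold after the same removal, and Dhcr7 fell short with a log2 fold of 0.97.

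**Figure D2:**
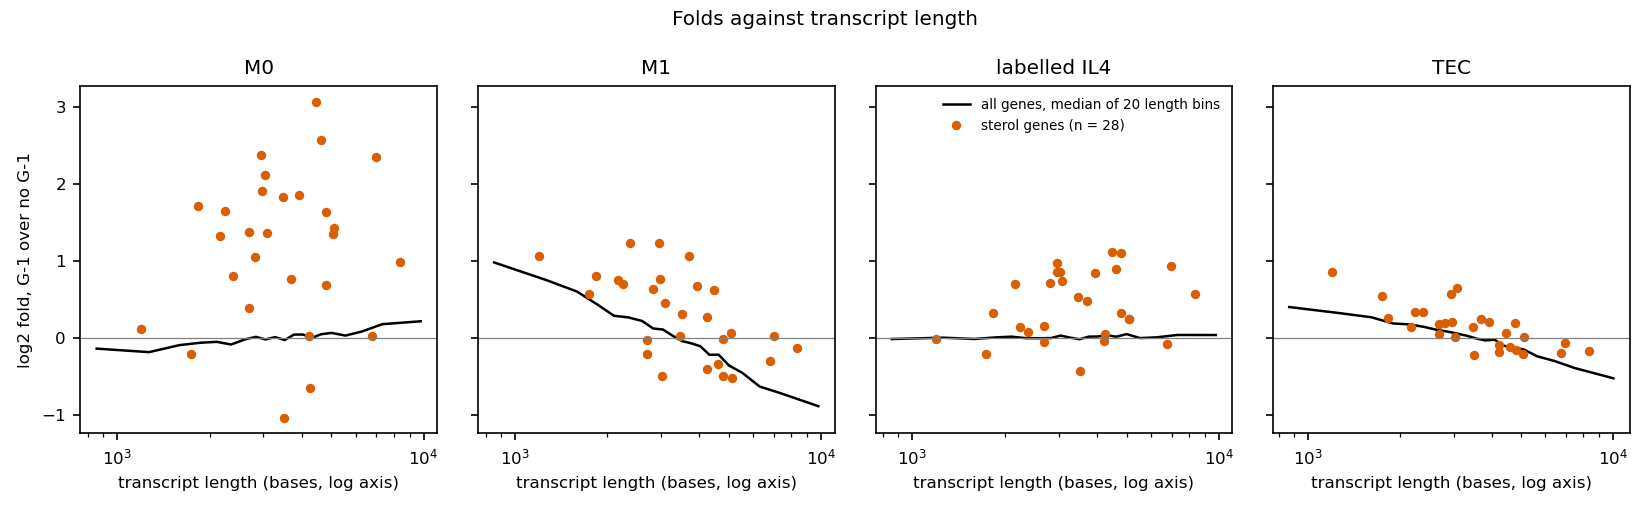
Log2 fold with G-1 over without (y axis) against transcript length in bases (x axis, log scale) in each of 4 pairs of libraries, with points for the 28 sterol genes and a line for the median of all genes in length bins. The line slopes down in the M1 and TEC panels, where rho over all genes was -0.54 and -0.58, and is close to level in the panel labelled IL4, where rho was 0.02.

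TECs were compared after co-culture with M1 macrophages that had been pretreated with G-1 or not. None of the 28 genes reached 2-fold in either direction, where 1.39% of 12992 genes were higher and 2.82% lower. The log2 folds ran from -0.23 for Lbr to 0.86 for Pmvk, which had 1238 counts in TECs beside G-1-treated macrophages and 718 in TECs beside untreated ones, a fold of 1.81 (1.65 to 1.99). Tm7sf2 had 1199 counts beside G-1-treated macrophages and 802 beside untreated ones, a fold of 1.57 (1.43 to 1.72). Fdps had 11469 counts beside G-1-treated macrophages and 8081 beside untreated ones, a fold of 1.49 (1.45 to 1.53). Sqle was nearly level, with 6500 counts beside G-1-treated macrophages and 6516 beside untreated ones. In TECs the median log2 fold was 0.14 over the 28 genes and 0.01 over all genes. Length again went with the folds, with rho of -0.58 over 12738 genes and -0.72 over the 28 sterol genes. After the trend over length and GC content was removed, Pmvk had a log2 fold of 0.57 and the median of the 28 genes was 0.13. Then 6 of the 28 genes changed direction, and 0 reached 2-fold. Macrophage markers summed to 115 CPM in TECs beside G-1-treated macrophages and 192 CPM in TECs beside untreated ones. Of the 34 further sterol genes measured, 0 reached 2-fold.

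**Figure D3:**
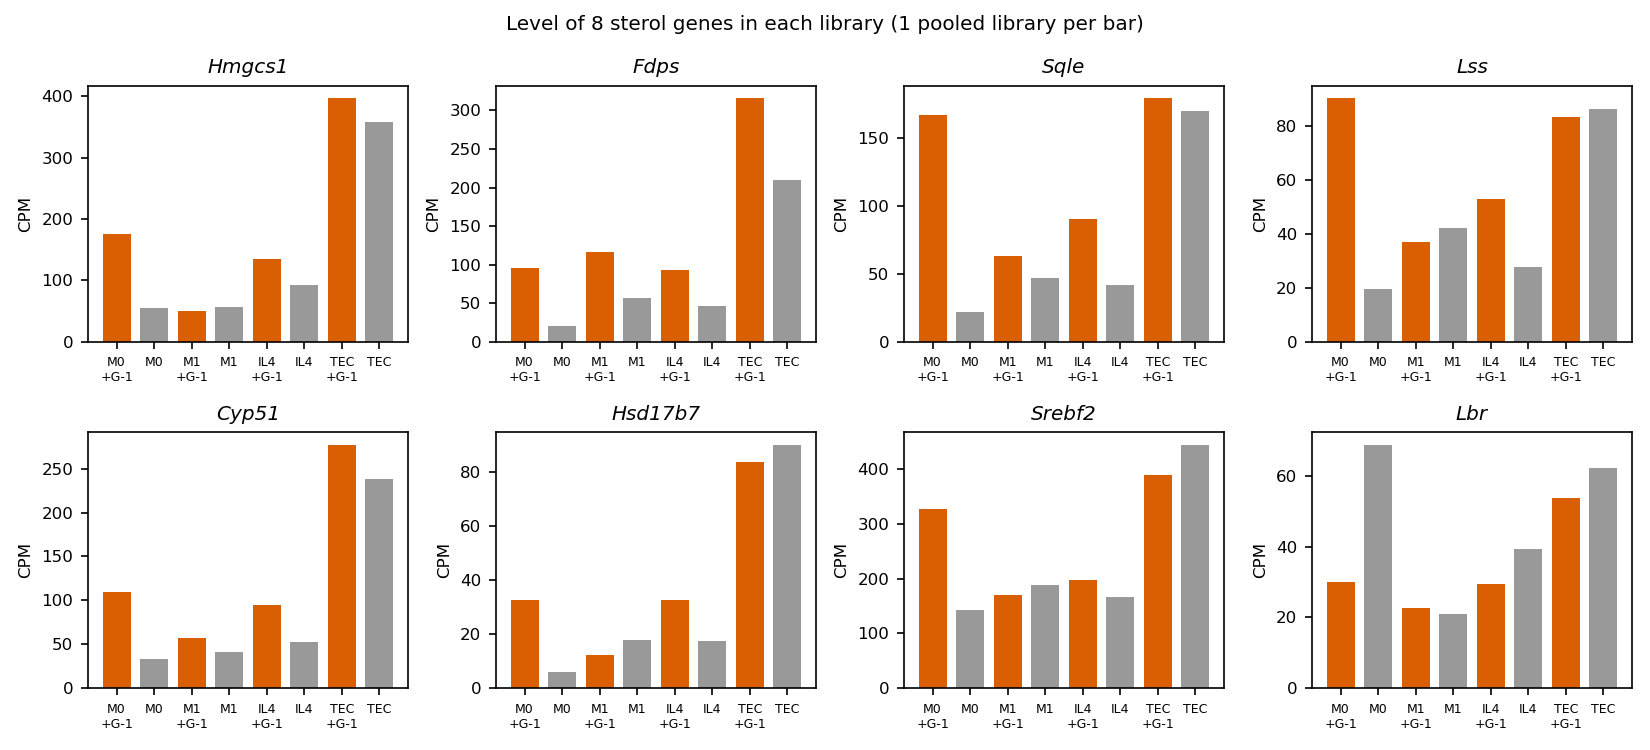
Level in CPM (y axis) of 8 sterol genes in each of the 8 libraries (x axis), 1 pooled library per bar with no error bar, with G-1 in orange to the left of its partner without G-1 in grey. In M0 macrophages Sqle stands at 166 CPM with G-1 and 22.2 CPM without, and at 179 CPM and 170 CPM in TECs beside macrophages with and without G-1.

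The levels in each library stand behind these folds. For Sqle the levels with G-1 and without were 166 and 22.2 CPM in M0 macrophages, 63.1 and 47.0 CPM in M1 macrophages, and 89.9 and 41.4 CPM in those labelled IL4. The M0 library without G-1 was thus the lowest of the 6 macrophage libraries for Sqle, and the one with G-1 the highest. Fdps stood at 95.7 and 20.6 CPM with and without G-1 in M0 macrophages, at 116 and 56.9 CPM in M1 macrophages, and at 93.0 and 46.9 CPM in those labelled IL4. Srebf2 stood at 327 and 143 CPM with and without G-1 in M0 macrophages, at 170 and 188 CPM in M1 macrophages, and at 198 and 166 CPM in those labelled IL4. In CPM, the M0 library with G-1 was the highest of the 6 for 13 of the 28 genes, as it was for 9.06% of 11876 genes, and after TMM scaling over the 6 libraries it was the highest for 18, as it was for 13.2%. The M0 library without G-1 was the lowest in CPM for 14 of the 28, as it was for 14.8% of all genes, and after TMM scaling for 16, as it was for 17.2%.

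The library labelled IL4 was also set in place of the M0 library without G-1, a choice made after the data were seen. Over that library, 15 of the 28 genes were at least 2-fold higher in the M0 library with G-1, where 10.4% of all genes were, and 0 were lower, where 12.2% were. By their labels these libraries differ in IL-4 as well as in G-1, although the library labelled IL4 lacked the markers of a response to it.

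Summed over genes, the 28 came to 2707 CPM with G-1 and 1347 CPM without in M0 macrophages. In M1 macrophages the sums were 1450 CPM with G-1 and 1418 CPM without, and in macrophages labelled IL4 they were 2188 CPM with G-1 and 1587 CPM without. In TECs they were 3351 CPM beside G-1-treated macrophages and 3101 CPM beside untreated ones. The 20 enzymes alone came to 1310 CPM with G-1 and 545 CPM without in M0 macrophages, 791 and 603 CPM in M1 macrophages, and 1105 and 707 CPM in those labelled IL4. The 2 transport and storage genes came to 688 CPM with G-1 and 375 CPM without in M0 macrophages, most of it Soat1. Genes with long transcripts weigh more in these sums.

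**Figure D4:**
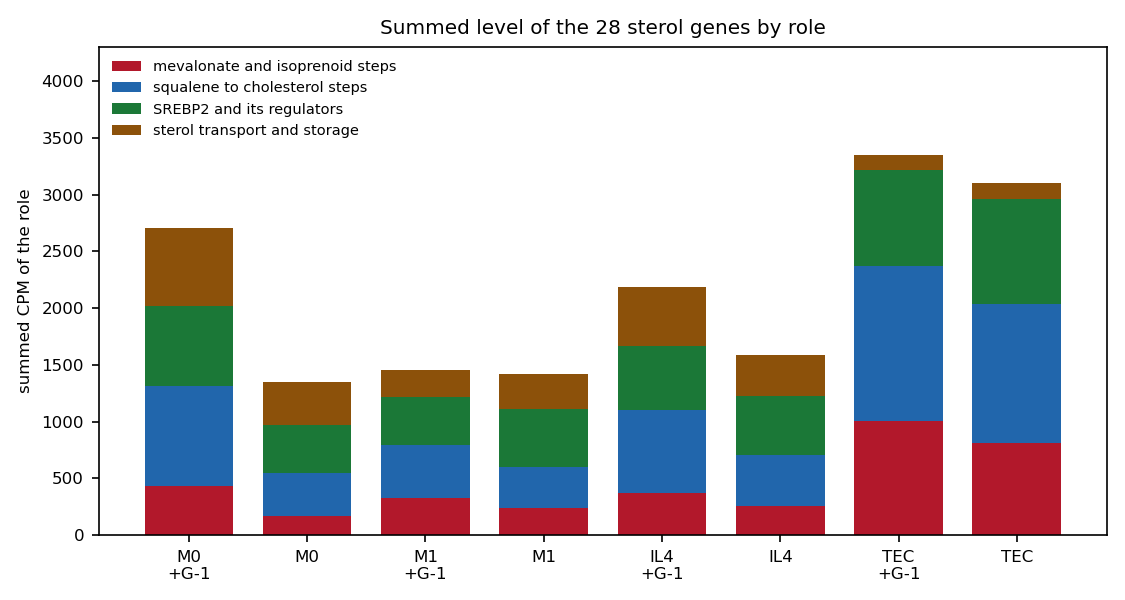
Summed CPM of the 28 sterol genes (y axis) in each of the 8 libraries (x axis), stacked by role, 1 pooled library per bar with no error bar. The bar with G-1 reaches 2707 CPM beside 1347 CPM without in M0 macrophages, and 3351 CPM beside 3101 CPM in TECs.

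Levels of different genes were compared per kilobase of transcript. In the M0 library with G-1, Soat1 led with 73.2 CPM per kb, ahead of Srebf2 with 64.5 and Msmo1 with 59.5 CPM per kb. In the M0 library without G-1, Soat1 led with 41.03 CPM per kb, ahead of Ebp with 31.0 and Srebf2 with 28.1 CPM per kb. Msmo1 stood at 17.7 CPM per kb there, and the least abundant of the 28 was Hsd17b7 with 1.34 CPM per kb. TECs beside untreated macrophages had a different order, led by Hmgcs1 with 103 and Srebf2 with 87.5 CPM per kb, while Soat1 stood at 5.31 CPM per kb.

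TECs beside untreated macrophages were also compared with M0 macrophages without G-1 for the level of the pathway itself. In TECs beside untreated macrophages 14 of the 28 genes were at least 2-fold higher than in M0 macrophages without G-1, where 34.2% of 13323 genes were, and 2 were lower, where 23.4% were. On the log2 scale the median difference was 1.11 over the 28 genes and 0.22 over all genes. Hsd17b7 was 11.7-fold higher in TECs, Idi1 8.28-fold and Fdps 8.17-fold. Soat1, at 44.5 CPM in these TECs and 344 CPM in M0 macrophages, was 9.67-fold lower in TECs, and Ebp was 2.05-fold lower. Cell type and co-culture cannot be told apart in this comparison.

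Polarization was examined next, in libraries without G-1. Of the 28 genes, 6 were at least 2-fold higher in M1 macrophages, where 16.8% of 11427 genes were, and 1 was lower, where 17.4% were. Hsd17b7 had 707 counts in M1 macrophages and 216 in M0, a fold of 3.25 (2.78 to 3.80). Fdps had 2233 counts in M1 macrophages and 720 in M0, a fold of 3.07 (2.83 to 3.35), and Insig1 had 5652 in M1 and 2232 in M0, a fold of 2.51 (2.39 to 2.64). The other genes called higher were oxidosqualene enzymes and a decarboxylase. Lss had 1649 counts in M1 macrophages and 690 in M0, a fold of 2.37 (2.17 to 2.59). Sqle had 1843 counts in M1 macrophages and 777 in M0, a fold of 2.35 (2.16 to 2.56), and Mvd had 1628 in M1 and 720 in M0, a fold of 2.24 (2.05 to 2.45). Lbr had 822 counts in M1 macrophages and 2410 in M0, and was 2.96-fold lower (2.73 to 3.21).

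These folds share the M0 library with those of G-1 in M0 macrophages. The 21 genes not called ran from -0.86 for Fdft1 to 0.71 for Acat2 on the log2 scale, and the median was 0.35 over the 28 genes and 0.01 over all genes. In edgeR's fit over all 6 macrophage libraries, M1 over M0 is taken over libraries with and without G-1 together. It therefore also carries the M0 library with G-1, and is no check of the change without G-1. There the log2 change of M1 over M0 was positive for 12 of the 28 genes, with a median of -0.096 against 0.01 over all genes. In that fit Sqle stood at -0.077 and Lss at 0.057. With the library labelled IL4 in place of M0, 0 of the 28 genes were at least 2-fold higher in M1 macrophages, where 16.1% of all genes were, and 0 were lower, where 17.8% were.

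Of the 34 further sterol genes measured, 3 were at least 2-fold higher and 3 lower in M1 than in M0 macrophages, against the same 16.8% and 17.4% of all genes. Soat2 had 455 counts in M1 macrophages and 10 in M0, a fold of 45.1 (24.3 to 94.7). Lipa had 8088 counts in M1 macrophages and 47558 in M0, and was 5.93-fold lower (5.79 to 6.07). Nceh1 had 5491 counts in M1 macrophages and 17202 in M0, and was 3.16-fold lower (3.07 to 3.26). Over the 6 macrophage libraries, with 2 libraries per state, these 3 genes passed edgeR's quasi-likelihood test of M1 over M0 with Benjamini-Hochberg adjusted p of 0.0275 for Soat2, 0.0168 for Lipa and 0.0290 for Nceh1. Acat1 had 476 counts in M1 macrophages and 1660 in M0, and was 3.52-fold lower (3.18 to 3.90). Pdss1 and Cyb5b were past 2-fold as well, both higher in M1.

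Between the library labelled IL4 and the M0 library, 4 of the 28 genes were at least 2-fold higher in the library labelled IL4, where 7.70% of 11333 genes were, and 0 were lower, where 6.64% were. Hsd17b7 had 709 counts in the library labelled IL4 and 216 in M0, a fold of 2.60 (2.23 to 3.04). Idi1 had 633 counts in the library labelled IL4 and 218 in M0, a fold of 2.30 (1.97 to 2.70). Fdps had 1907 counts in the library labelled IL4 and 720 in M0, a fold of 2.10 (1.93 to 2.29), and Stard4 had 2786 in the library labelled IL4 and 1096 in M0, a fold of 2.02 (1.88 to 2.16). For 3 of these 4 genes the interval reaches under 2-fold. The median log2 fold was 0.29 over the 28 genes and 0.02 over all genes. In edgeR's fit over all 6 macrophage libraries, which takes those with and without G-1 together, the log2 change was positive for 10 of the 28 genes. The median there was -0.144 against 0.005 over all genes. As this library lacked the markers of a response to IL-4, these values compare the library labelled IL4 with M0 and are no measure of IL-4. Of the further sterol genes, Pdss1 was 3.30-fold higher and Lipe 2.93-fold lower in the library labelled IL4.

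The effect of G-1 over the 3 macrophage states, with 3 libraries on each side, was tested with edgeR's quasi-likelihood test over 6 libraries, with state in the model and 2 residual degrees of freedom. In this fit 0 of the 28 genes passed a Benjamini-Hochberg adjusted p of 0.05, as did 0.00% of 11921 genes in either direction. A gene that G-1 changed differently between states is less likely to pass, since that difference counts as residual spread here. At an unadjusted p under 0.05, 10 of the 28 genes were higher with G-1 and 0 lower, against 676 higher and 958 lower among all genes. The fitted log2 change was positive for 25 of the 28 genes, with a median of 0.75 against -0.03 over all genes. The smallest p belonged to Fdps, with a log2 change of 1.49 ± 0.33 (SE) and an adjusted p of 0.205 by edgeR's test. DESeq2 called 4 of the 28 higher, together with 333 genes higher and 490 lower among all genes. DESeq2's adjusted p was 0.00252 for Fdps, 0.0204 for Msmo1, 0.0308 for Sqle and 0.0324 for Cyp51, each higher with G-1 in 3 of 3 states.

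The count of calls changed with the tool, as above, and with the M1 pair. Without the M1 pair, edgeR's test called 3 of the 28 genes higher with G-1, with adjusted p of 0.0245 for Sc5d, 0.0484 for Cyp51 and 0.0493 for Dhcr7, beside 422 genes higher and 556 lower in all. Without the M0 pair or without the pair labelled IL4 it called 0 of the 28. For M1 over M0, edgeR's test called 0 of the 28 genes, where 4.97% of 11921 genes were higher and 4.92% lower, and at an unadjusted p under 0.05 it had 1 higher, Fdps, and 2 lower, Dhcr7 and Fdft1. DESeq2 called Dhcr7 lower in M1, with an adjusted p of 0.0418. For the libraries labelled IL4 over M0, edgeR's test called 0 of the 28 and 0.00% of all genes, with 0 of the 28 at an unadjusted p under 0.05, and DESeq2 called 0 of the 28.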

How the data were processed

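Gene expression was measured by RNA-seq in 8 libraries, each of RNA pooled from 3 samples. The authors extracted the RNA with TRIzol, built libraries with the VAHTS Universal V6 kit, and deposited whole-number read counts per gene symbol, 1 table per library. DESeq2 and the build mm10 are named in the submitters' processing notes. Which aligner and which counter were run is not given in the sources used here. Libraries summed to between 35027179 and 40671596 counts, and 5108 symbols were at 0 in all libraries.

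The 28 genes and the other lists were chosen with earlier results of these data known. Python 3.11.15 (pandas 2.3.3, scipy 1.17.1, numpy 2.4.6) was used for folds, after TMM scaling within each pair by edgeR 4.0.16 in R 4.3.3. A gene needed 20 counts or more in either library of the pair, a count of 0 was replaced by 3 counts, and a gene was called at 2-fold. Intervals are exact binomial (Clopper-Pearson) 95% intervals of the counts and cover counting error only. With 1 pooled library per condition no pair carries a p-value. The effect of G-1 over the states was fitted over 6 macrophage libraries with edgeR's quasi-likelihood test, filterByExpr and Benjamini-Hochberg adjustment over all genes kept, and with DESeq2 1.42.0 as the other tool. Each state had 1 library with G-1 and 1 without. The residual of these fits thus holds how far the effect of G-1 differs between states, together with any spread between pooled libraries. Their p-values do not measure the spread between samples. The scripts were tested on simulated data.

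Each of the 28 genes called in a pair is given with its counts, and the rest by ranges and counts or by counts named beside their role. Of the further sterol genes, up to 6 with the largest folds were named per comparison, with the exceptions stated. Promoters were shown for those among the 5 genes with the smallest p for G-1 that had a window, for 1 regulator, and for Hmgcs1, which was added after its sequence was seen. Transcript length and GC content came from GENCODE M21, for 95.2% of symbols, and coordinates and promoters from RefSeq on GRCm38.p6. The alternatives were DESeq2's size factors, total counts, a minimum of 100 counts or none, the near bound of the interval, running medians of 501 genes over length and then GC content, subtracted from the folds, leaving out each pair of states, and the library labelled IL4 in place of M0, the last added after the data were seen.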

Additional observations from a re-analysis of the deposited data

How the results depend on the processing

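No paired analysis of replicates was possible because each condition was 1 pooled library. The test over 6 libraries already holds the pairing of libraries by state. Total counts in place of TMM shifted every log2 fold by -0.16 in the M0 pair, -0.20 in the M1 pair, -0.15 for M1 over M0 and 0.12 for the library labelled IL4 over M0, and the calls then numbered 2 higher with G-1 in M1 macrophages and 2 lower in M1 than in M0 macrophages. Asking that the near bound of the interval pass 2-fold left 0 genes lower with G-1 in M0 macrophages, 2 higher with G-1 in M1 macrophages, 1 higher with G-1 in those labelled IL4 and 1 higher in the library labelled IL4 than in M0. With the length and GC trend removed, 2 genes were higher with G-1 in M1 macrophages and 1, Lbr, was lower in the library labelled IL4 than in M0. With the library labelled IL4 in place of M0, 0 of the 28 genes were lower in M0 macrophages with G-1, and 0 were higher and 0 lower in M1 macrophages. For G-1 over the states, DESeq2 called 4 genes higher and leaving out 1 pair of libraries gave 0 to 3, and for M1 over M0 DESeq2 called 1 lower. Why these counts changed was not tested, except that a stricter bound by its construction calls fewer genes. The 17 genes higher with G-1 in M0 macrophages became 16 under total counts, under the near bound and with the trend removed, and stayed 17 with DESeq2's size factors and with either filter. Total counts shifted the folds by too little to turn any that was called at 2-fold. Of the folds called among the 28 genes, 0 changed direction with the trend removed. Among those not called, 9 changed direction under total counts, Hmgcs1, Lss and Srebf2 in the M1 pair among them, and 14 with the trend removed. The genes above 0 with G-1 then numbered 22 under total counts in M0 macrophages and 15 in M1 macrophages. In the fit over states the direction of Insig1, Stard4, Mbtps2, Scap and Ebp also differed between settings. Among all genes, DESeq2 called 333 higher and 490 lower for G-1 where edgeR called 0 and 0, edgeR without the low count filter called 12 and 13, and edgeR without the M1 pair called 422 and 556. For M1 over M0, DESeq2 called 1261 higher and 1295 lower where edgeR called 593 and 587, and for the library labelled IL4 over M0 it called 69 and 113 where edgeR called 0 and 0. Depth did not limit the 28 genes, whose lowest count was 204, but 1 pooled library per condition leaves the spread between samples unmeasured.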
